A study of Mus musculus with 16 samples.

Results

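The sarcomeric myosin heavy chain genes considered here are 8 genes that encode the motor subunit of the thick filament of striated muscle. Myh3, Myh8, Myh2, Myh1, Myh4 and Myh13 lie in a tandem cluster on mouse chromosome 11. The cardiac pair Myh6 and Myh7 lies on chromosome 14. These 8 genes were taken as a gene family from the 21755 protein-coding genes of GENCODE M21 on the chromosomes used. Every ATAC-seq peak that overlapped a gene body or the 50 kb on either side of it was assigned to them. This gave 166 of the 565331 peaks in the 16 deposited lists and, once overlapping peaks of the 14 libraries compared were merged, 28 of 80290 regions, 16 around the chromosome 11 cluster (chr11:67028300-67421586, mm10) and 12 around Myh6 and Myh7 (chr14:54891921-55044626).

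Open chromatin was measured in C2C12 iMyoD1 cells, a polyclonal derivative of the mouse skeletal myoblast line C2C12. All 4 groups have the same genotype, endogenous MyoD1 plus a dox-inducible Halo-MyoD1 driven by a TRE3GS promoter, and the groups combine 24 h of doxycycline (+dox) or vehicle (no dox) with growth medium (GM, proliferating) or 24 h of serum withdrawal (DM, differentiating). Only some of the cells switch the transgene on, so each library averages induced and uninduced nuclei. There were 4 biological replicates per group, and the comparisons use 14 of the 16 libraries because the methods of the study set aside both DM replicate 1 libraries, one per treatment, as outliers in quality. DM cultures started from 300000 cells a well and GM cultures from 75000, so density and medium cannot be told apart.

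A myosin heavy chain carries the ATPase head that pulls on actin and the coiled-coil tail that packs into the thick filament. Vertebrate muscle exchanges one heavy chain for another as it matures: Myh3 is the embryonic form, Myh8 the perinatal form, Myh2, Myh1 and Myh4 the adult fast forms, and Myh13 a form of extraocular muscle, while Myh6 (alpha) and Myh7 (beta) serve the heart and Myh7 also slow skeletal fibres. MyoD1 is a basic helix-loop-helix factor that binds E-boxes, CANNTG, and drives myoblasts into this programme.

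None of the 8 genes had a peak at its start site in any of the 14 libraries, and the bodies of Myh2, Myh1, Myh4, Myh8 and Myh7 held no peak at all. The accessible sites that were found lay before Myh3, inside introns of Myh3, Myh13 and Myh6, and in the flanks. One of them, in intron 34 of Myh6, had a peak in all 7 +dox libraries and in none of the 7 no dox libraries. The windows of 200 bases, 4 in all, centred on the median summits are given first, because they are the sites inside or directly before these genes that 3 or more libraries of the same group shared. They are read 5′ to 3′ from GRCm38, the assembly behind mm10, on the strand of the gene they belong to, with every CANNTG in capitals.
Myh3 upstream region, chr11:67076849-67077048, plus strand: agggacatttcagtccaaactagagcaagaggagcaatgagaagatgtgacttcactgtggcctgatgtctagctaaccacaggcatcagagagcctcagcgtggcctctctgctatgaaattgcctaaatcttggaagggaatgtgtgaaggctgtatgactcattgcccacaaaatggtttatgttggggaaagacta
Myh3 intron 2 region, chr11:67081306-67081505, plus strand: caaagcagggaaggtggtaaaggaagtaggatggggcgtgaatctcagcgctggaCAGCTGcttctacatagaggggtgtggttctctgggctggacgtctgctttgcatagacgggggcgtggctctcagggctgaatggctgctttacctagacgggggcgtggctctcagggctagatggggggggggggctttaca
Myh13 intron 27 region, chr11:67358204-67358403, plus strand: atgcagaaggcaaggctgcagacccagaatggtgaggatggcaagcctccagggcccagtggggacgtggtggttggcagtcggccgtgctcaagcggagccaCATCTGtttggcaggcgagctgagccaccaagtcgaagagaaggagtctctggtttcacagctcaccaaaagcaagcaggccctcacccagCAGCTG
Myh6 intron 34 region, chr14:54945992-54946191, minus strand: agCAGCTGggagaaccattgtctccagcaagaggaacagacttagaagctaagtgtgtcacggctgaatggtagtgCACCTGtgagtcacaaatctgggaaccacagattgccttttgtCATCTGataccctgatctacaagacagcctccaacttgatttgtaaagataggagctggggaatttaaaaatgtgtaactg

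Motifs were searched on both strands in the 200 bases around the median summit of every merged region. The Myh6 window held 3 E-boxes, CAGCTG at base 3, CACCTG at base 77 and CATCTG at base 120, and an AP-1 site, TGAGTCA, at base 83, directly after the second E-box. The Myh3 intron 2 window held CAGCTG at base 56, and the Myh13 window CATCTG at base 104 and CAGCTG at base 195. The Myh3 upstream window held no E-box, but GGAATG, the reverse complement of the TEAD core CATTCC, at base 140 and the AP-1 site TGACTCA at base 159. Over all 80290 windows of this length, 67.7% held CANNTG, 19.7% CAGCTG, 17.5% CATTCC and 26.8% TGACTCA, and of the 28 windows around the myosin genes 21, 8, 6 and 8 did. A match says only that the letters are there.

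The depth and enrichment of the libraries bear on every value that follows. The kept lists held up to 58587 peaks, and the shortest, GM no dox replicate 1, set the length to which all lists were cut to compare the strongest peaks. A peak at the genome-wide background needed a fold enrichment of 3.16 to 3.97. Fold enrichment is the ratio of fragments at a summit to the local background, with 1 added to each. At the 11046 regions with a peak in every kept library, the median fold enrichment ranged from 6.44 to 15.5 in GM no dox, 12.3 to 16.7 in GM +dox, 9.92 to 14.2 in DM no dox and 15.2 to 18.7 in DM +dox, so it was higher with dox than without in DM and overlapped in GM. Of the myoblast genes, Myod1 had a start-site peak in 14 libraries, Des in 13, Cdh15 in 10 and Myf5 in 6. The median over all protein-coding genes was 9 libraries. Ptprc, Epcam, Cdh5 and Krt5, markers of other cell types, had none and the endothelial gene Pecam1 had one in 8. Among the strongest peaks Myod1 had one in 14 libraries, Cdh15 in 3, and Des, Myf5 and Pecam1 in none.

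**Figure D1:**
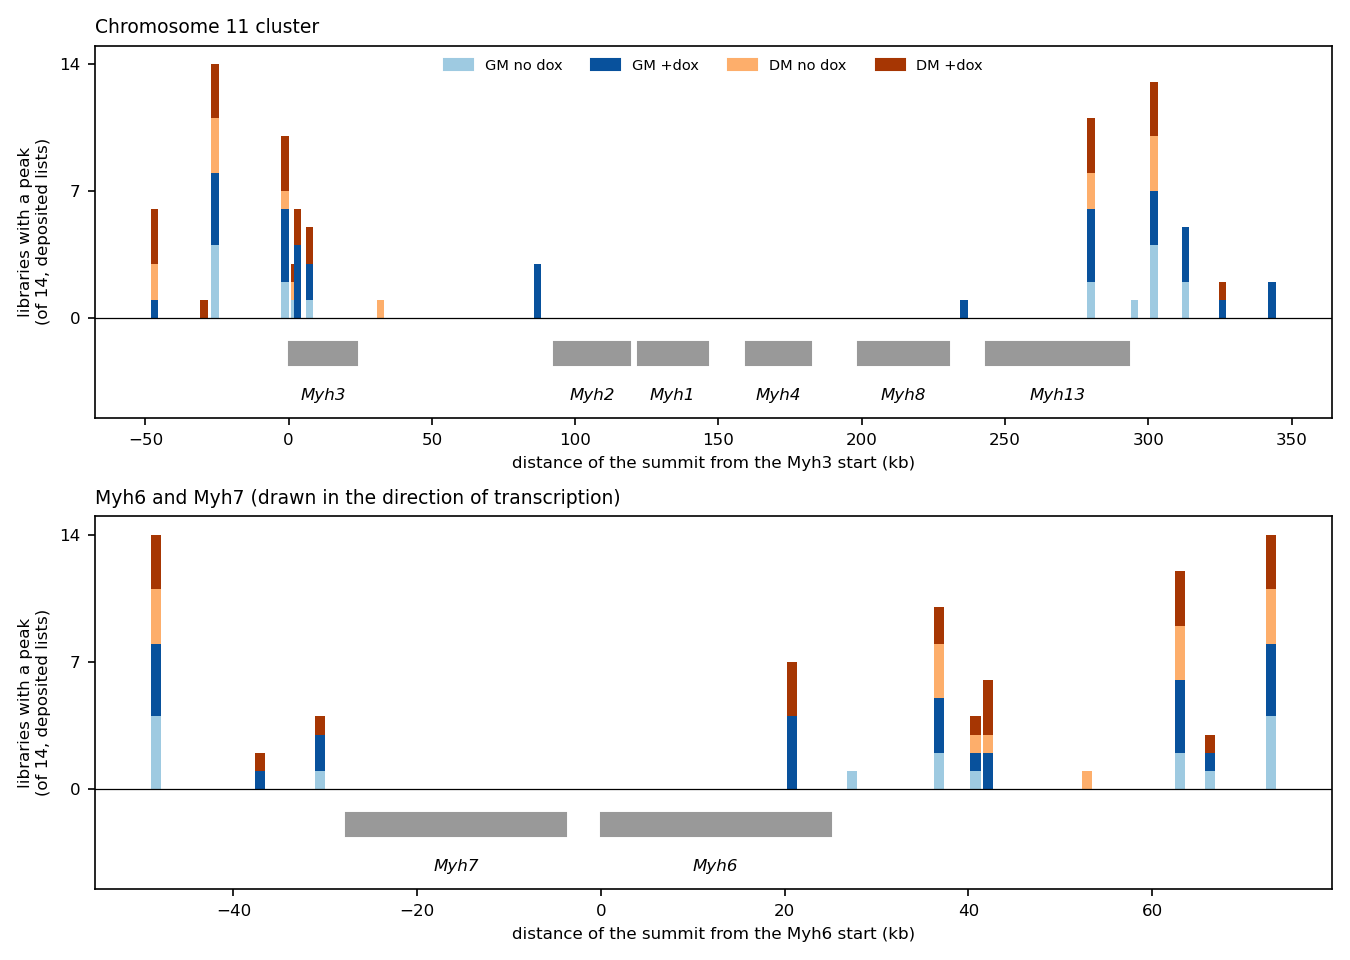
Number of libraries, of 14, with a peak in each merged region, stacked by group, against the distance of its summit from the start of Myh3 (top) or Myh6 (bottom, in the direction of transcription); grey boxes are gene bodies. Bars stand before and in Myh3, in and after Myh13 and in Myh6, and a stretch of 148.6 kb that holds Myh2, Myh1, Myh4 and Myh8 has none.

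Myh3, the embryonic heavy chain (chr11:67078300-67102291, plus strand), had the most accessible sites of the skeletal genes inside or next to its body. The upstream region (chr11:67076612-67077241, intergenic) had its summit 1351 bp before the Myh3 start and a peak in 10 of 14 libraries. In GM no dox it had a fold enrichment of 9.69 in replicate 2 and 9.92 in replicate 4, and no peak in replicates 1 and 3. In GM +dox the values were 11.2, 10.3, 10.6 and 7.88 in replicates 1 to 4, a mean of 9.99 ± 1.46 (SD, n = 4). In DM no dox only replicate 3 had a peak, with 7.64, whereas DM +dox had 10.1, 13.0 and 9.68 in replicates 2 to 4, a mean of 10.9 ± 1.79 (SD, n = 3). The values of both GM groups and of DM +dox overlapped, and the single DM no dox value lay below them all. Relative to the library's median, however, that DM no dox value was 0.770, inside the range of 0.539 to 0.830 over the libraries with a peak. The region was found in 3 of 7 libraries without dox and in 7 of 7 with it, where the +dox lists were longer than most no dox lists. One of these peaks, in DM no dox replicate 3, ranked among the strongest of its list. The value relative to the library's median was 0.539 or higher in every library with a peak, and 6 of the 7 no dox libraries needed less than that for a peak at the genome-wide background. The local background at this site in the libraries without a peak was not known. How many of all regions had such counts with and without dox was not determined. When the 10 longest lists were cut to their 36531 strongest peaks, the region was present in 2 of 2 GM no dox and 4 of 4 GM +dox libraries. Among these lists it was also present in 3 of 3 DM +dox libraries and absent from the 1 DM no dox library.

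The second Myh3 site, in intron 2 of the 40-exon transcript (chr11:67081319-67081585), overlapped no annotated exon and had its summit 3106 bp after the start. It had a peak in all 4 GM +dox libraries and in no GM no dox library. The GM +dox values were 5.27, 4.49, 5.96 and 5.70 in replicates 1 to 4, a mean of 5.35 ± 0.643 (SD, n = 4), and DM +dox had 4.78 in replicate 2, 6.65 in replicate 4 and no peak in replicate 3. These were weak peaks, ranked 27054 to 46761 in their lists. Relative to the library median they ran from 0.255 to 0.463. The no dox libraries needed 0.218 to 0.614 for a peak at the genome-wide background, and only 2 of the 7 needed less than 0.255. Their local background at this site was not known. Whether the site was absent or missed in the no dox libraries was not tested. When the 10 longest lists were cut to their 36531 strongest peaks, it was left in 2 of 4 GM +dox and 1 of 3 DM +dox libraries.

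2 weaker Myh3 sites varied between libraries of 1 group. A site in intron 9 (chr11:67085412-67085835) had a peak in 5 libraries (GM no dox replicate 4, GM +dox replicates 1 and 2, DM +dox replicates 3 and 4), with fold enrichments of 4.12 to 6.74. Another in intron 2 (chr11:67080131-67080478), which touches an exon, had a peak in replicate 4 of GM no dox, DM no dox and DM +dox, at 5.15 to 6.54.

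The perinatal gene Myh8 (chr11:67277124-67308634) and the adult fast genes Myh2 (chr11:67171027-67197517), Myh1 (chr11:67200052-67224575) and Myh4 (chr11:67238029-67260446) had no peak in their bodies in any library, in either medium and with or without dox. The Myh4 window held no region at all, as did those of 14.3% of all protein-coding genes. Among the strongest peaks the windows of all 4 genes were empty, as were those of 24.6% of protein-coding genes. At most 2.06% of the runs of 100 bases in these 4 bodies occur elsewhere in the 2 clusters, and between 10.04% and 17.8% of their bases are masked as repeats; how well reads map there across the genome was not tested. The peaks on either side of this stretch were weak. One lay 5875 bp before Myh2 (chr11:67165050-67165278), with a peak in 3 of 4 GM +dox libraries, at 5.48 to 7.99, and in no other group; the other lay between Myh8 and Myh13 (chr11:67313878-67314085), with a peak of 4.30 in GM +dox replicate 4 alone. Both were picked after their values were seen.

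Myh13 (chr11:67321658-67371586), the extraocular form, had 1 accessible site in its body. It lay 36646 bp after the start, with its summit in intron 27 and its edges over the flanking exons (chr11:67357863-67358654), and had a peak in 11 of 14 libraries. GM no dox had 10.9 in replicate 2 and 9.06 in replicate 4, and GM +dox 8.95, 12.5, 6.79 and 9.94 in replicates 1 to 4. DM no dox had 7.21 in replicate 2 and 11.3 in replicate 4, and DM +dox 14.2, 7.76 and 13.1 in replicates 2 to 4. The libraries without a peak were GM no dox replicates 1 and 3 and DM no dox replicate 3, whose lists were among the 4 shortest, and the values of the 4 groups overlapped. A run of 30 bases from this window occurred nowhere else in the clusters (0 of 171 runs), although it covers exons of a gene family.

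Beyond the 3′ end of Myh13 a site 58619 bp after its start (chr11:67379730-67380463) had a peak in 13 of 14 libraries, all but GM +dox replicate 4. Its fold enrichment was 5.25 to 13.2 in GM no dox, 7.12 to 11.5 in the 3 GM +dox libraries, 5.79 to 9.04 in DM no dox and 6.21 to 7.40 in DM +dox. In fold enrichment the groups overlapped throughout. Relative to the library median the DM +dox values, 0.396 to 0.438, lay below those of the other groups, which began at 0.495 in DM no dox. On that scale 14.8% of all regions tested for dox in DM did not overlap, in either direction. A further site at 69580 bp (chr11:67390915-67391501) was found in GM only, in 2 of 4 no dox and 3 of 4 +dox libraries, at 6.54 to 13.0.

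**Figure D2:**
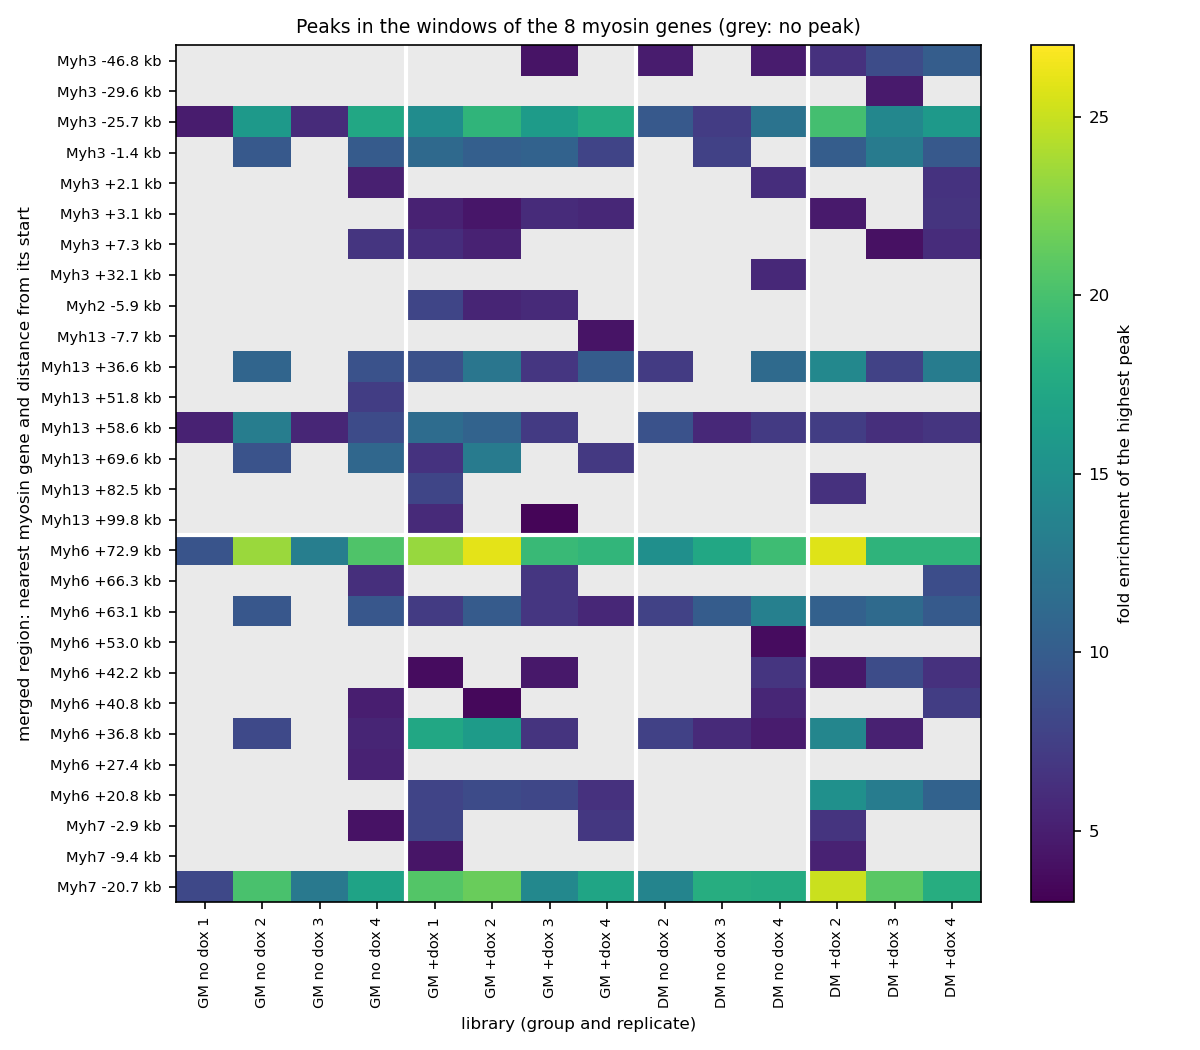
Fold enrichment of the highest peak in each of the 28 merged regions (rows, named by the nearest myosin gene and the distance from its start) in each of 14 libraries (columns, by group and replicate), with grey where a library had no peak. The 3 rows filled in every library are promoters of neighbouring genes, and the row of the Myh6 intron 34 site is filled in the 7 +dox libraries and empty in the 7 no dox libraries.

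Myh6, the alpha heavy chain of heart muscle (chr14:54941921-54966927, minus strand), held the site that followed dox most closely. The region (chr14:54945845-54946304) lay in intron 34 of the 39-exon transcript, 20835 bp after the start clear of every annotated exon, 1299 bp before the nearest annotated start, that of another Myh6 transcript, and 2756 bp from Mir208a, the microRNA gene inside Myh6. GM +dox libraries had fold enrichments of 7.90, 8.53, 8.13 and 6.45 in replicates 1 to 4, and DM +dox libraries had 15.1, 13.0 and 10.5 in replicates 2 to 4. No library without dox had a peak, 0 of 4 in GM and 0 of 3 in DM. The summit held 10 to 17 fragments in GM +dox, over a local background of 0.393 to 1.21 fragments.

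The +dox values stood above the fold of 3.16 to 3.97 that a peak needed without dox at the genome-wide background. The local background of the no dox libraries at this site was not known. Relative to the library's own median the lowest +dox value was 0.511, and 6 of the 7 no dox libraries needed less than that. The exception was GM no dox replicate 1, which needed 0.614. With only peaks of −log10 q of at least 3 the counts did not change. When the 10 longest lists were cut to their 36531 strongest peaks, the site was left in 3 of 4 GM +dox and 3 of 3 DM +dox libraries, so that it was no longer all-or-none in GM, and in none of the 3 no dox libraries of that length. Of all 80290 regions, 53 (0.066%) had a peak in every +dox and in no no dox library, none had the reverse, and the +dox lists were longer than most no dox lists. Among those 53 the mean fold enrichment ranged from 5.04 to 11.5, and 9, the Myh6 site included, were at or above its value. Of the 53 windows, 84.9% held CANNTG, 37.7% CAGCTG, 28.3% CATTCC and 18.9% TGACTCA, beside the 67.7%, 19.7%, 17.5% and 26.8% of all regions given above. The part that library enrichment plays in the pattern was not tested.

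With dox present, the Myh6 site had a higher mean in DM than in GM, a difference that did not pass the test: 12.9 ± 2.29 (SD, n = 3) against 7.75 ± 0.907 (SD, n = 4), with the lowest DM value, 10.5, above the highest GM value, 8.53. Relative to the library median the ranges were 0.690 to 0.834 and 0.511 to 0.607. In a limma fit over the 27426 regions with a peak in all 7 +dox libraries, the log2 difference was 0.51 ± 0.14 (SE), with an adjusted p of 0.144, and the adjusted p ranged from 0.106 to 0.390 over the alternatives. All 3 DM libraries were above all 4 GM libraries, while the groups did not overlap, in either direction, at 17.8% of these regions in fold enrichment and at 12.7% relative to the library median. In that fit 83 regions passed (0.303%), and none of the 7 tested around the myosin genes did.

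**Figure D3:**
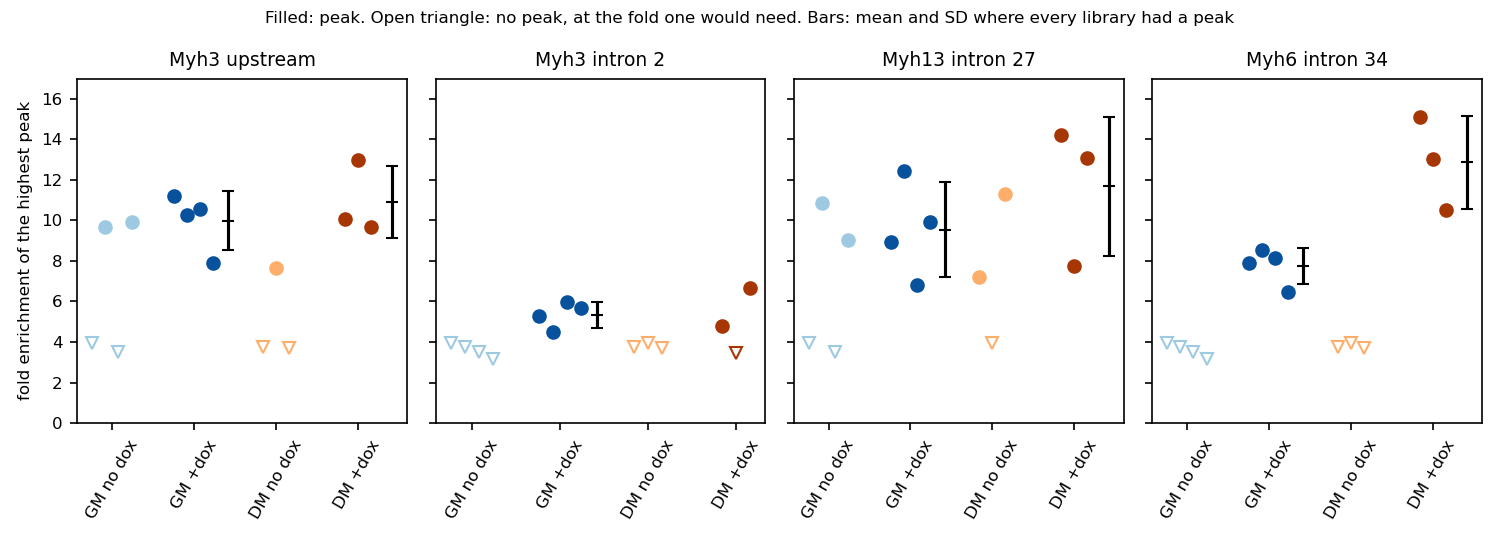
Fold enrichment of the highest peak in each library at the 4 sites whose sequences are given; filled points are peaks, open triangles are libraries without a peak, drawn at the fold a peak would need at the genome-wide background, and bars give the mean and SD where every library of a group had a peak. At the Myh6 site all 7 no dox libraries are triangles between 3.16 and 3.97, while the +dox points lie between 6.45 and 15.1.

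Myh7, the slow and cardiac beta heavy chain (chr14:54970684-54994626, minus strand), had no peak in its body. A site 2866 bp before its start (chr14:54997133-54997674) had a peak in 4 libraries, namely GM no dox replicate 4, GM +dox replicates 1 and 4 and DM +dox replicate 2, at 4.21 to 7.99. Other sites lay nearer to the starts of other genes. Next to Slc22a17 a site (chr14:54903534-54904065) had a peak in 12 libraries at 5.69 to 13.5, and next to Il25 one (chr14:54929830-54930331) had a peak in 10 at 4.82 to 17.4. A site in an intron of Tmem220, in the flank of Myh3 (chr11:67031458-67031851), was found in 5 of 6 DM libraries, all 3 with dox (6.4, 8.56 and 10.1), and in 1 of 8 GM libraries at 4.29; these sites were picked after their values were seen. The regions not described each had a peak in 1 to 6 libraries.

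3 regions of these windows had a peak in all 14 libraries, and all were promoters of other genes. They were the start of Pabpn1 (chr14:54893654-54894635), which binds poly(A) tails, with a fold enrichment of 9.20 to 26.0; that of Ngdn (chr14:55014864-55015770), 8.21 to 25.1; and that of Adprm (chr11:67052185-67052923), 4.83 to 19.8. Log2 fold enrichment, centred on each library's median, was tested with limma over the 11046 regions present everywhere. None of the 3 passed in any comparison, where 0 of all regions passed for the dox effect in GM (0%), 8 for that in DM (0.0724%), and, for DM against GM, 48 without dox (0.435%) and 36 with it (0.326%). For dox in GM 649 regions had an unadjusted limma p under 0.05, 1 of these 3 among them. The largest of the 12 differences was 0.40 ± 0.17 (SE) at Adprm for dox in GM (limma adjusted p = 0.840). The dox effect in DM minus that in GM was −0.13 at Adprm, −0.31 at Pabpn1 and −0.14 at Ngdn, each with a limma adjusted p of 1.00.

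Regions with a peak in every library of 2 groups were fitted in the same way, comparison by comparison. None of the 3, 5 and 4 tested around the myosin genes passed for dox in GM (0 of 12541 regions, 0%; 612 at an unadjusted limma p under 0.05), the dox effect in DM (0 of 18106, 0%; 1770) or DM against GM without dox (2 of 11154, 0.0179%). The site beyond Myh13 was lower by the largest amount for dox in DM: its log2 difference was −0.65 ± 0.20 (SE), with a limma adjusted p of 0.323, and of 0.0454 with a replicate block, under which 427 regions passed in all. Without centring on the library median that difference was −0.09, where the library median itself was higher with dox.

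In the full lists, regions with a peak in every library of one group and in none of the other were counted next. For dox in GM, 2 of the 25 regions around the myosin genes were found with dox only, the Myh3 intron 2 and Myh6 intron 34 sites, where 0.446% of all regions were. For dox in DM, 1 of 22 was, the Myh6 site, against 5.37% of all regions, so that share was near the background. Between DM and GM none of 20 was all-or-none without dox and none of 24 with it, where 0.411% and 1.81% of all regions were in either direction. Among the strongest peaks of each library, none of the 5, 7, 7 and 4 regions compared was all-or-none, where 0.287% and 1.61% of all regions were for the dox effect in GM and DM, and 2.03% and 2.21% for DM against GM without and with dox.

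The number of peaks in the windows followed the length of the list. In the deposited lists it was 4, 9, 4 and 16 in GM no dox replicates 1 to 4 and 18, 14, 15 and 11 in GM +dox. It was 8, 7 and 13 in DM no dox replicates 2 to 4 and 15, 13 and 15 in DM +dox. The groups overlapped in both media, though narrowly in DM, where the highest no dox value equalled the lowest +dox value. In the bodies alone the counts were 0, 1, 0 and 3 in GM no dox and 4, 4, 3 and 3 in GM +dox, and 1, 0 and 2 in DM no dox and 3, 3 and 5 in DM +dox. With all lists cut to equal length the window counts were 4, 4, 2 and 3 in GM no dox, 4, 4, 3 and 3 in GM +dox, 5, 5 and 4 in DM no dox and 3, 3 and 3 in DM +dox, and no body held a peak. In DM the sign of the dox difference thus turned, from 5 more peaks with dox in the deposited lists (mean 14.3 against 9.33) to fewer among the strongest (3 against 4.67). The difference among the strongest was 0 when the lists were cut shorter still, −0.67 with 10 kb flanks and −0.75 with all 16 libraries.

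**Figure D4:**
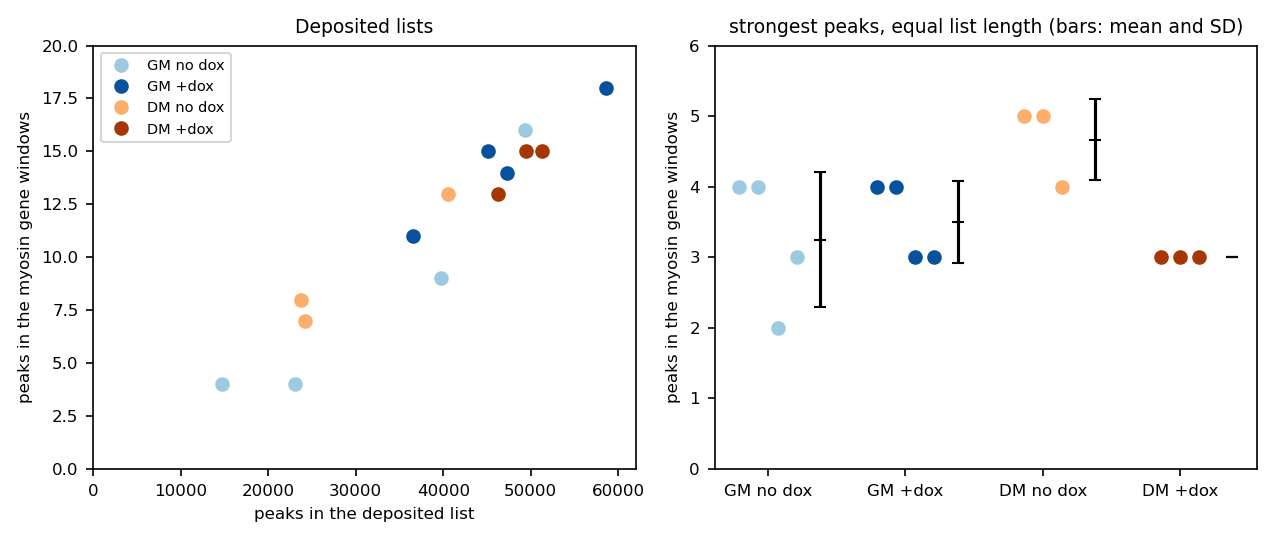
Left, peaks in the myosin gene windows against the number of peaks in each deposited list, 1 point per library coloured by group. Right, peaks in the same windows among the strongest of each list at equal list length, with the mean and SD by group; on the left the counts climb from 4 to 18 with list length, and on the right DM +dox has 3 in each library against 4 or 5 in DM no dox.

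Each gene's window was tested with a two-sided exact permutation test over all protein-coding genes with a peak. No gene passed the adjusted threshold of 0.05 in any of the 4 comparisons (0% of 16069, 15903, 16145 and 15979 genes), where the exact p could not go below 0.0286 with 4 against 4 libraries, 0.1 with 3 against 3 and 0.0571 with 3 against 4. At an unadjusted exact p under 0.05, 69 genes were found for dox in GM, no myosin gene among them. Only the Myh6 window separated the groups: all 3 DM no dox libraries had 3 peaks among the strongest and all 3 DM +dox libraries had 2 (exact permutation p = 0.1, adjusted p = 1), and GM no dox had 2 in each (exact permutation p = 0.0571, adjusted p = 1). Of all gene windows 2.80% and 2.90% did not overlap in these comparisons. The third peak of DM no dox was the site next to Il25 in replicate 2 and that next to Slc22a17 in replicates 3 and 4, not one in Myh6.

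The myosin genes were set beside genes whose products work with theirs. A start-site peak has its summit within 1 kb of an annotated start. In the deposited lists none of the 8 heavy chain genes had one in any library, where 40.3% of protein-coding genes had none and 26.5% had one in all 14. Of 17 thick filament partners, 3 had one in all 14 libraries: Myl4 and Mylpf, which encode light chains, and Myom1, an M-band crosslinker. A further 6 had one in some libraries: Myl6b in 13, Myl3 in 10, Mybpc2 in 9, Myom2 in 4, and Myl2 and Myom3 in 2 each. Mybpc2, the fast myosin-binding protein C, had it in all 7 +dox libraries and in 1 no dox library of each medium. Myom2 had it in 1 GM +dox library and all 3 DM +dox libraries. Among the strongest peaks, at equal list length, neither Mybpc2 nor Myom2 had one in any library, while Myl6b had one in 13. The remaining 8 had none, including Ttn, the titin gene, Unc45b, a myosin chaperone, and Smyd1, a methyltransferase that acts on myosin. They also include Myh7b, itself a myosin heavy chain gene, which was counted among the partners.

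Of the 4 non-sarcomeric heavy chain genes, Myh9 and Myh10, the widely expressed non-muscle forms, had a start-site peak in all 14 libraries and Myh14 in 9, while Myh11, the smooth muscle form, had none. Fold enrichment at the starts of Myl4, Mylpf, Myom1, Myh9 and Myh10 differed by −0.28 to 0.30 on the log2 scale over the 4 comparisons, and none passed the limma test. None of the 17 partners and 4 non-sarcomeric genes passed the window test among the strongest peaks in either direction, at an adjusted or an unadjusted exact p under 0.05. Only for dox in GM could an unadjusted exact p go under 0.05. In the deposited lists 1 partner had such an unadjusted exact p for dox in GM, where 1.44% of all genes did, and none passed after adjustment. In the deposited lists the median difference with dox in GM was 1.00 peaks a window for the 8 heavy chain genes and 3.00 for the partners, beside 1.5 for all genes. In DM the corresponding medians were 0.50, 2.67 and 1.67. Counts in the deposited lists follow list length. Among the strongest peaks, at equal list length, the same medians were 0, 0 and 0 in GM. There they were −0.17, 0 and 0 in DM.

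**Figure D5:**
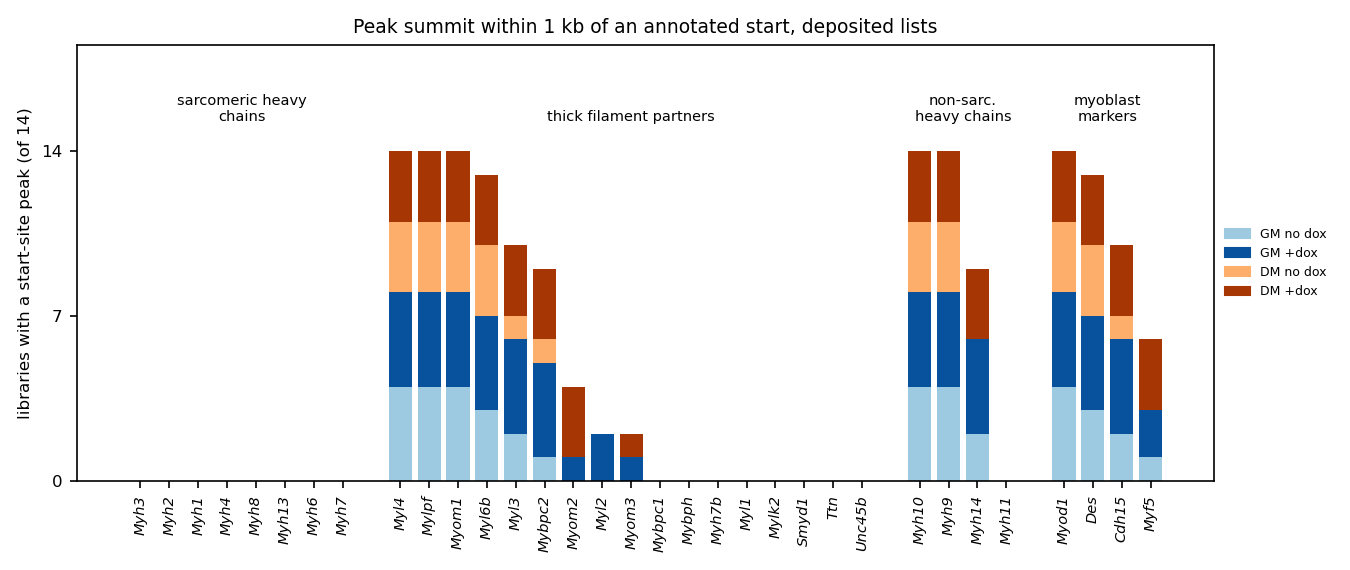
Number of libraries, of 14, with a peak summit within 1 kb of an annotated start, in the deposited lists, for the 8 sarcomeric heavy chain genes and 3 comparison lists, stacked by group. The 8 sarcomeric genes are at 0, while Myl4, Mylpf, Myom1, Myh9, Myh10 and Myod1 reach 14.

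Per length, the chromosome 11 cluster lay below the median gene window and the Myh6 and Myh7 windows above it. The cluster had 4.07 merged regions per 100 kb in the deposited lists and 0.763 among the strongest, and the Myh6 and Myh7 windows had 7.86 and 2.62, where the median over all protein-coding gene windows was 5.12 and 1.74. Among the strongest peaks, the genes whose window counts were most like those of the chromosome 11 cluster, of 13555 genes over the 14 libraries, were Ccl20 and Daw1 (Pearson r = 0.891 each), Dhx37 (r = 0.817), Dock9 (r = 0.782) and Cnih3 (r = 0.780). The cluster's own count only ran from 0 to 2 there, and all genes share the libraries. In the deposited lists, where counts follow list length, 8306 of 17223 genes had an r over 0.8, with Prpf6 highest (r = 0.982). The RefSeq promoters of the myosin genes, 250 bases before to 50 after the start on GRCm38.p6, held a CANNTG in 6 of 8 genes, all but Myh2 and Myh1, and CAGCTG in Myh4 only, where 72.3% and 16.3% of 32851 promoters did.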

How the data were processed

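ATAC-seq peaks were deposited for 16 libraries. The authors ran the reads through nf-core/atacseq against mm10, removed blacklisted regions and had MACS2 call narrow peaks, separately for every library; deepTools is also named in the submitters' processing notes. Each deposited peak has a score, a fold enrichment over local background (a ratio), and −log10 of its p-value and q-value; the lists hold q-values under 0.05. Read counts per region were not used here, so depth was recovered by solving each peak's fold enrichment and p for whole fragments (peaks with −log10 p under 30): the genome-wide background was 0.339 to 1.13 fragments per base in kept libraries.

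Peaks of 14 libraries that overlapped by at least 1 bp were merged (Python 3.11.15, pandas 2.3.3, scipy 1.17.1). Lists were used whole and cut to the length of the shortest kept list, strongest first by −log10 p. The 4 comparisons were dox in GM, dox in DM, and DM against GM without and with dox. Gene windows were tested by exact permutation. Log2 fold enrichment, centred on each library's median, was tested with limma 3.58.1 in R 4.3.3. All p-values were adjusted by Benjamini-Hochberg over all features of the genome-wide fit and are two-sided. Both tests were tested on simulated data. Fits over regions present in 2 groups were added after seeing the data.

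Named were the 8 genes, regions present in all 14 libraries, and regions in a body or the 5 kb before a start that 3 or more libraries of the same group shared; other regions were picked after their values were seen. One marker gene of another cell type is not reported here. The members and lists were chosen with earlier results of these data known. Replicate numbers were checked for pairing: same-numbered libraries deviated together, with correlations across regions of 0.167 to 0.276 for dox in GM, 0.190 to 0.364 for dox in DM and 0.191 to 0.463 for differentiation with dox, but 0.0975 at the lowest for differentiation without dox.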

Additional observations from a re-analysis of the deposited data

Results flagged for a closer look

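The 68 groups of 4 libraries examined were window counts, some of which share regions, and fold enrichments of regions with a peak in all 4. For continuous values chance sets about 1 in 20 apart. A count in which 3 libraries tie and 1 differs is always set apart, so that rate does not hold for the counts. In 7 groups 1 library stood apart from the other 3. 6 were window counts in which 3 libraries tied: GM no dox replicate 3 had 0 peaks near Myh3 among the strongest against 1 in the others; GM +dox replicate 4 had 3 near Myh3 against 4, and 0 near Myh2 and Myh1 against 1, in the deposited lists; GM +dox replicate 4 had 2 near Myh8 against 1, and replicate 1 had 5 near Myh13 against 3. The seventh was the Myh6 intron 34 site, whose fold enrichment relative to the library median was 0.607 in GM +dox replicate 3 against 0.511 to 0.524 in the other 3.

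The libraries left out of the comparisons still held signal at neighbouring promoters. DM +dox replicate 1 had a peak in 3 regions, at the starts of Adprm (4.07-fold), Pabpn1 (10.8) and Ngdn (5.95), and DM no dox replicate 1 in 1, at Ngdn (5.29). Neither had a peak in a myosin gene body. DM +dox replicate 1 thus lacked the Myh6 site found in the other 7 +dox libraries; its list of 14236 peaks was shorter than the lowest rank, 17584, at which that site stood elsewhere.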

How the results depend on the processing

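Only peak lists were analysed, so a missing peak is not a measured level, and short lists cannot show weak sites. The difference in window peaks, among the strongest 0.25 (dox effect in GM), −1.67 (dox effect in DM), 1.42 (DM against GM, no dox) and −0.50 (DM against GM, +dox), moved as follows. With all deposited peaks the dox effects were 6.25 in GM and 5 in DM, and with −log10 q of at least 3 they were 5.75 and 5, with 0 for DM against GM, +dox. The dox effect in DM was 0 with still shorter lists, −1 when ranked by fold enrichment, −0.75 with all 16 libraries and −0.67 with 10 kb flanks. DM against GM, no dox, was −0.25 with shorter lists, 0.50 with 16 libraries and 0.17 with 10 kb flanks; with dox it was 0.25 when ranked by fold enrichment and 0 with 10 kb flanks. Leaving out a library gave −0.17 to 0.50, −2 to −1.50, 1 to 1.75 and −0.67 to −0.33. The causes were not tested.

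The all-or-none count among the strongest, 0 in each comparison, became 2 for dox in GM and 1 in DM with all deposited peaks, and, ranked by fold enrichment, 1 in 2 comparisons, dox in DM and DM against GM without dox, both at the site next to Slc22a17. Leaving out a library gave 0 to 1 for both, with the 1 coming without DM no dox replicate 2. In the full lists, the 10 lists cut to 36531 peaks gave 0 for dox in GM, where the Myh6 site was left in 3 of 4 GM +dox libraries, and, with 1 DM no dox library left, 3 and 6 in the comparisons that use it. All 16 libraries gave 0 for dox in DM, and replicates 3 and 4 alone gave 2 for dox in DM and 1 for differentiation with dox. Leaving out a library gave 1 to 2 for dox in DM (2 without DM no dox replicate 3 or 4, or DM +dox replicate 2 or 3), 0 to 1 for differentiation without dox (1 without DM no dox replicate 3) and 0 to 2 with dox (2 without GM +dox replicate 3, 1 without replicate 4). With all deposited peaks, 0.446% of all regions were all-or-none for dox in GM and 5.39% for dox in DM. For the other settings the share over all regions is not given here. An all-or-none pattern also asks less of a group with fewer libraries. These counts were therefore not read as a result about the myosin genes.

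With a replicate block the window differences were 0.25, −1.67, 1.67 and −0.33, and the regions passing limma in all went from 8 to 89 (dox in DM), 48 to 160 (DM against GM, no dox) and 36 to 184 (+dox). With quantile normalization they were 0, 35 and 8, and without centring 0 in each. The block changed no other call around the myosin genes than the one given. None of the member regions passed limma, and no member window the exact test, under any alternative run on all 14 libraries' regions or with a library left out. Without centring the Adprm promoter passed in the fit of 2 groups for dox in DM (log2 0.79, limma adjusted p = 0.0296), as did 4324 regions in all, against 0 with centring.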

Other observations

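The site next to Il25 on chromosome 14 varied with replicate number within +dox, and DM no dox ran in the same order. In GM +dox its fold enrichment was 17.4 and 16.2 in replicates 1 and 2, 6.64 in replicate 3, with no peak in replicate 4; in DM +dox it was 14.03 in replicate 2, 5.24 in replicate 3, with no peak in replicate 4. Without dox, DM had 7.68, 5.88 and 4.82 in replicates 2 to 4. GM no dox had 8.30 in replicate 2, 5.48 in replicate 4 and no peak in replicates 1 and 3. How many of all regions show such an order was not counted. The difference between replicate numbers was not tested, and the site was picked after its values were seen.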
